A study of Mus musculus with 18 samples.

Results

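The antioxidant and NRF2 response was followed through 37 genes, chosen by name and not by their values, though with earlier results of these data known. They are the transcription factor NRF2 (Nfe2l2) and its inhibitor Keap1, 4 enzymes and factors widely read as markers of NRF2 activity (Hmox1, Nqo1, Srxn1 and Osgin1), and 31 genes of glutathione, thioredoxin, peroxide, superoxide and NADPH handling. All 37 were among the 23420 genes of the deposited count tables, and all 37 were among the 14162 genes that passed the filter on low counts.

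NRF2 is kept scarce by KEAP1, which holds it in the cytosol and hands it to a ubiquitin ligase. Oxidants and electrophiles modify cysteines of KEAP1, NRF2 then enters the nucleus and, paired with a small MAF protein, binds antioxidant response elements (ARE) in front of genes for glutathione synthesis, quinone reduction, heme breakdown and NADPH supply. Many of the same enzymes also answer to other regulators: ATF4, for one, drives the cystine importer Slc7a11 through amino acid response elements. In fibroblasts and heart muscle the respiratory chain is a main source of superoxide. Opa1, which fuses the inner mitochondrial membrane and shapes its cristae, and Mtfr1l, named as a relative of a mitochondrial fission regulator, both belong to that organelle.

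The cells were primary cardiac fibroblasts of newborn CD1 mice, not sorted as far as the protocols say, and every library described here came from cells turned toward induced cardiomyocytes by a retrovirus carrying Mef2c, Gata4 and Tbx5 on one transcript. The second set of the series holds 12 bulk RNA libraries, 3 in each of 4 groups: shMtfr1l with shOpa1 (the double knockdown), shMtfr1l alone, shOpa1 alone, and the control hairpin shNT. Titles tie replicates 1, 2 and 3 of each group to days 7, 8 and 9, and the genotype field numbers the Opa1 hairpin shOpa1, shOpa2 and shOpa3 over the same replicates, so hairpin number, day and replicate cannot be told apart. The labels call the libraries biological replicates and name no animals or isolations behind them; a p-value here weighs only the spread between libraries, which may be technical. The first set gives 1 shMtfr1l and 1 shNT sample at day 7, each with the same retrovirus.

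Depth ran from 16205862 to 25317069 counts a library, and values are given as CPM, counts relative to the TMM-scaled library total, where 3 counts correspond to 0.117 to 0.183 CPM. Mtfr1l averaged 27.2 ± 4.15 CPM in the double knockdown, 16.4 ± 2.88 CPM in shMtfr1l and 69.6 ± 3.34 CPM in shOpa1, against 71.9 ± 4.17 CPM in shNT (SD, n = 3 each). Opa1 averaged 18.3 ± 2.34 CPM in the double knockdown, 72.1 ± 1.35 CPM in shMtfr1l and 8.96 ± 3.16 CPM in shOpa1, against 63.1 ± 8.33 CPM in shNT (SD, n = 3 each). Each hairpin thus lowered its own target, and cells given both hairpins kept more of each target than cells given 1. All 10 fibroblast markers lay above the 3-count floor in every library, with sums of 35107 to 37317 CPM in the double knockdown, 32002 to 33948 CPM in shMtfr1l, 37076 to 38070 CPM in shOpa1 and 32354 to 35137 CPM in shNT. The 10 cardiomyocyte markers summed to 2020 to 2079 CPM in the double knockdown, 3398 to 3678 CPM in shMtfr1l and 1484 to 1653 CPM in shOpa1, against 2460 to 2520 CPM in shNT. The 10 lay above the floor in every library except Myl2 in 1 of the double-knockdown libraries. Macrophage markers, 9 of which are in the tables, summed to 595 to 773 CPM in the double knockdown, 140 to 529 CPM in shMtfr1l and 245 to 629 CPM in shOpa1, against 272 to 409 CPM in shNT. Of the 9, Cd163 was at 0 in 7 libraries and the other 8 were above the floor in all 12. Endothelial markers lay between 43.7 and 59.8 CPM over the 12 libraries. Epicardial markers summed to 164 to 224 CPM in the 9 knockdown libraries and 253 to 263 CPM in shNT, and smooth muscle markers to 3378 to 3825 CPM in the 9 and 4139 to 4509 CPM in shNT. The part of this mix in the values below was not tested, and in bulk RNA fewer cells of a type and less RNA per cell cannot be told apart.

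Against shNT, antioxidant genes changed in both directions under each knockdown, and the extracellular dismutase Sod3 fell under all 3. Under shOpa1, 13 of the 37 passed the test (edgeR quasi-likelihood, Benjamini-Hochberg adjusted p under 0.05 over all genes tested), 8 higher (Hmox1, Srxn1, Slc7a11, Txn2, Txnrd1, Glrx, Prdx6 and G6pdx) and 5 lower (Keap1, Prdx1, Prdx2, Gpx3 and Sod3). All genes tested passed in 29.4% of cases there, 14.3% higher and 15.1% lower, so the 35.1% of the 37 lay near the background. Under shMtfr1l, 8 passed, 3 higher (Nfe2l2, Txn2 and Gpx3) and 5 lower (Gpx1, Sod3, Tkt, Gstp1 and Mgst1), 21.6% of the 37 against 10.8% of all genes, 5.56% higher and 5.19% lower. The double knockdown against shNT had 15, 9 higher (Hmox1, Slc7a11, Gclc, Txn2, Txnrd1, Prdx3, Prdx6, G6pdx and Pgd) and 6 lower (Prdx1, Prdx2, Gpx3, Sod3, Gsta4 and Gstp1), 40.5% against 23.1% of all genes, 11.2% higher and 11.9% lower. The count for shMtfr1l was 5 without replicate 1 of shNT, 5 without replicate 1 of every group and 5 without replicate 2 of every group.

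Against shMtfr1l alone, the double knockdown raised 11 of the 37 (Hmox1, Slc7a11, Txn2, Txnrd1, Prdx3, Prdx6, Gpx1, G6pdx, Pgd, Tkt and Mgst1) and lowered 5 (Keap1, Prdx2, Gpx3, Sod1 and Gsta4), 43.2% against 21.5% of all genes, 9.72% higher and 11.7% lower. Against shOpa1 alone, 3 passed: Nfe2l2 and Keap1 were higher and Sod3 was lower, 8.11% against 4.77% of all genes, 2.31% higher and 2.46% lower. The interaction, the effect of shMtfr1l with shOpa1 minus its effect without, passed for Gpx1, Sod3 and Tkt, each with a positive sign, again 8.11% of the 37, against 3.56% of all genes, 1.57% positive and 1.99% negative. Some of these counts rest on single libraries. The count against shMtfr1l was 10 without replicate 1 of the double knockdown, 10 without replicate 1 of every group and 8 without replicate 3 of every group. The count against shOpa1 was 0 without replicate 2 of the double knockdown or of every group (4 at an unadjusted p under 0.05 in each case; DESeq2, with all libraries, called 3). It was 1 without replicate 3 of the double knockdown, of shOpa1 or of every group. The interaction count was 1 without replicate 1 or 3 of the double knockdown, replicate 2 of shOpa1, replicate 1 of shNT, or replicate 1 or 2 of every group. Without replicate 1 of every group Gpx1, Sod3 and Tkt all lost their calls. The 1 call there was Txn2 (log2 difference -0.49, adjusted p = 0.0203), which did not pass with all libraries (0.159). Median log2 changes of the 37 were small: 0.14 for the double knockdown against shMtfr1l, where 26 of the 37 were positive, -0.06 for shMtfr1l, -0.02 for shOpa1 and 0.02 for the double knockdown against shNT, and 0.00 for the double knockdown against shOpa1. Over all genes tested the medians lay within 0.01 of 0. In all, 23 of the 37 (62.2%) passed at least 1 of the 6 tests, as did 41.5% of all genes, and 14 passed none. The shares and correlations of all genes, here and below, were not matched to the 37 for level. The part of level in their differences from the 37 was not tested. With 3 libraries against 3, a two-sided exact permutation test of a single gene cannot go below 0.1, so calls rest on the fit across all genes.

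**Figure D1:**
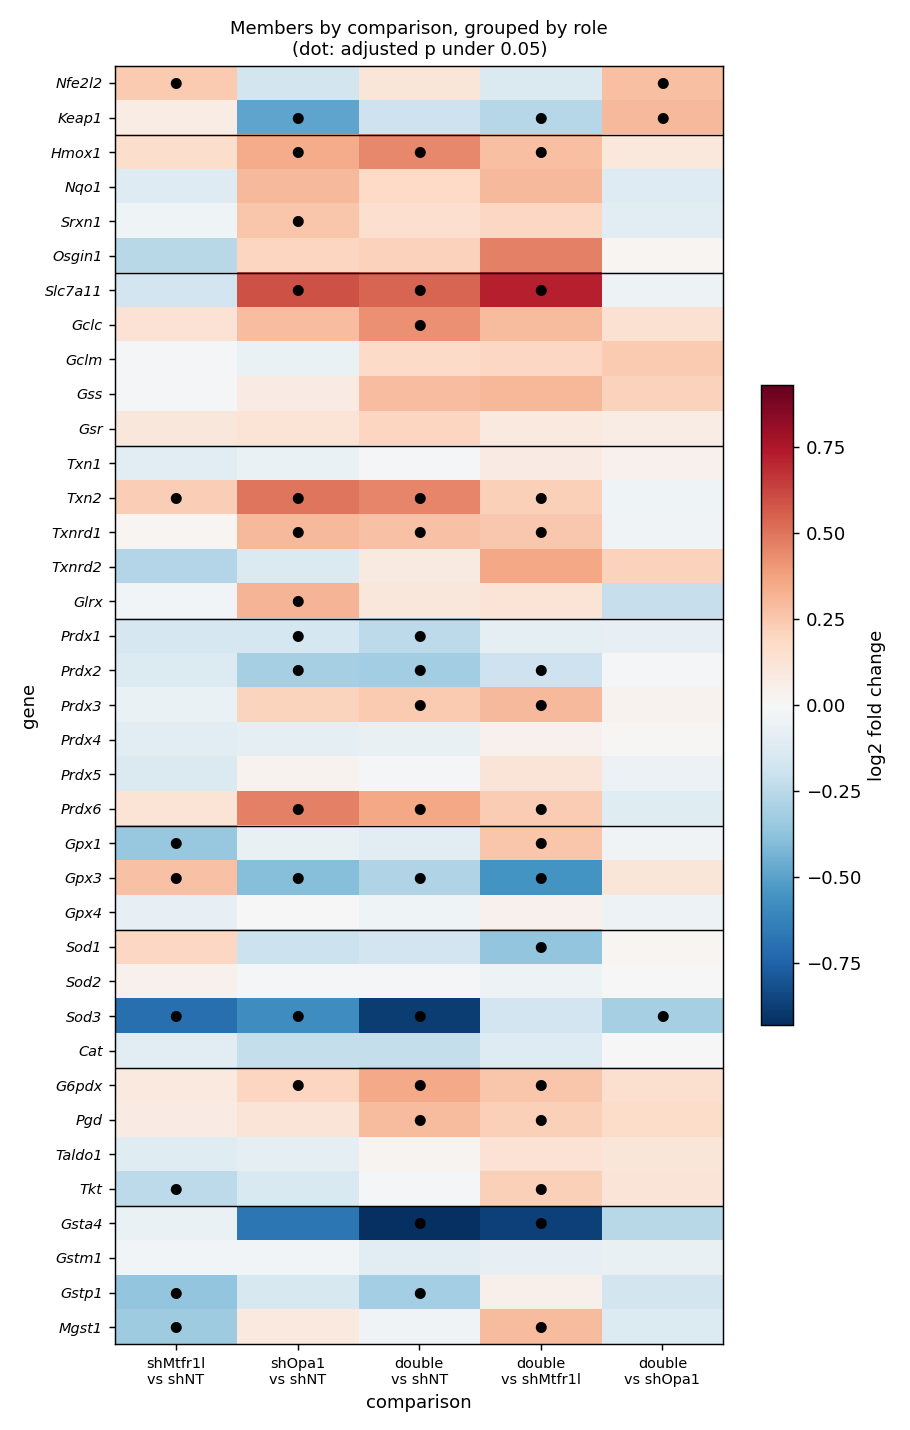
Log2 fold change of each of the 37 genes (rows, grouped by role) in the 5 comparisons between groups (columns, where double is shMtfr1l with shOpa1), red higher and blue lower in the first-named group, with a dot where the adjusted p was under 0.05. The red block at Hmox1, Slc7a11, Txn2, Txnrd1, Prdx6 and G6pdx recurs in the 3 columns that add shOpa1, while Sod3 is blue in all 5 columns and Gpx3 is red under shMtfr1l and blue under shOpa1.

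Promoter windows from RefSeq (GRCm38.p6, the same build as mm10), from 250 bases before to 50 bases after a start site, were found for 31 of the 37 genes. No window was used for Hmox1, Gclc, Gsr, Prdx6, Sod3 and Gsta4. The letters of the ARE core, TGACNNNGC, searched on both strands, stood in windows of 9 of the 31 (Nfe2l2, Srxn1, Gclm, Txnrd1, Prdx1, Sod1, G6pdx, Pgd and Mgst1), or 29.0%, against 14% of all 27025 genes with a window. The amino acid response core TGATGNAA, bound by ATF4 with its partners, stood in the window of 1 of the 31, Slc7a11, against 4.51% of all genes. Of the genes raised by shOpa1 against shNT, 6 had a window and 3 of these held the ARE core. Of the lowered ones, 4 had a window and 1 held it, and of those that did not pass, 5 of 21 did. Below, 4 windows are printed 5′ to 3′ along the gene's own strand with the matches in capitals, because the first 3 genes rose with Opa1 knockdown and the fourth, with an ARE core as well, fell. The Slc7a11 window is chr3:50443564-50443863 on the minus strand, with a match at bases -66 to -59 on the gene's strand and one at -47 to -40 on the other. The Txnrd1 window, 1 of 3 starts listed for the gene, is chr10:82858956-82859255 on the plus strand, with its match at -92 to -84. The G6pdx window is chrX:74428831-74429130 on the minus strand, with its match at -57 to -49. The Prdx1 window is chr4:116685349-116685648 on the plus strand, with its match at -133 to -125, and the last 3 matches read on the strand opposite to the gene.
Slc7a11: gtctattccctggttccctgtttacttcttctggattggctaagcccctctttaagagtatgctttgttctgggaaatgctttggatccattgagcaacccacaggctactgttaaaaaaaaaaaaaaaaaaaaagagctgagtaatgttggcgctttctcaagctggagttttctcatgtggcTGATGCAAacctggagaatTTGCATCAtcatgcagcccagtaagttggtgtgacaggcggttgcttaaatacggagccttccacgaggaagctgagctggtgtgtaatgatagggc
Txnrd1: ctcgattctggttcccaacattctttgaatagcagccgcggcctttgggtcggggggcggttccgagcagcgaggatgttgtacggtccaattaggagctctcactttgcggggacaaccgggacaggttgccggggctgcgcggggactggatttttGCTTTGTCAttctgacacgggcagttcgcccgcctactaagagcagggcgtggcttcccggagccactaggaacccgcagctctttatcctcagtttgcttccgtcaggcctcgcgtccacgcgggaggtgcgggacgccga
G6pdx: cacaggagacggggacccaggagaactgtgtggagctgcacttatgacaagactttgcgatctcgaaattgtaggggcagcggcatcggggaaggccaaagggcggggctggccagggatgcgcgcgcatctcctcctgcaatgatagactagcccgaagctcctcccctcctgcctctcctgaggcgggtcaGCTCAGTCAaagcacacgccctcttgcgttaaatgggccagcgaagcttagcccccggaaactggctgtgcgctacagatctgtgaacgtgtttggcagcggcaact
Prdx1: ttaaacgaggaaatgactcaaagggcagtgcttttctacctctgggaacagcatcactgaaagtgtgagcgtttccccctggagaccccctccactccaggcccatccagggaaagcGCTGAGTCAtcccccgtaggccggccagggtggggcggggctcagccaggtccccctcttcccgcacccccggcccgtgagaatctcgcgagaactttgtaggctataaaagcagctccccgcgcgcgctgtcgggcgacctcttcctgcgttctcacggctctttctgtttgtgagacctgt
A match describes these letters alone, and a window without one says nothing of binding elsewhere.

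Keap1 fell under shOpa1, and Nfe2l2 was highest under shMtfr1l. Keap1 (mm10 chr9:21229730-21239332, minus strand), the adaptor that marks NRF2 for destruction, stood at 59.5, 71.3 and 65.7 CPM in the double-knockdown libraries, 82.9, 78.8 and 74.1 CPM in shMtfr1l, 57.1, 51.9 and 50.7 CPM in shOpa1 and 77.1, 73.9 and 73.8 CPM in shNT. All shOpa1 libraries lay under all others, the double-knockdown libraries came next, and those of shMtfr1l and shNT overlapped. Keap1 was 1.41-fold lower in shOpa1 than in shNT (log2 change -0.49 ± 0.08, SE for this and all later log2 changes, adjusted p = 4.97e-06). This call held whichever library was left out. It was also lower in the double knockdown than in shMtfr1l (log2 change -0.26 ± 0.08, adjusted p = 0.0128), a call lost when replicate 1 of the double knockdown, replicate 1 of shMtfr1l or replicate 1 of every group was left out (adjusted p from 0.0801 to 0.275). Against shOpa1 alone, Keap1 was higher in the double knockdown (log2 change 0.30 ± 0.08, adjusted p = 0.018), which was lost when replicate 2 or 3 of the double knockdown, replicate 2 or 3 of shOpa1 or replicate 2 or 3 of every group was left out (adjusted p from 0.0577 to 0.417). In the double knockdown against shNT Keap1 did not pass (log2 change -0.19 ± 0.08, adjusted p = 0.0714). It passed there without replicate 2 of the double knockdown (0.0319).

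Nfe2l2 (chr2:75675519-75704641, minus strand), the message for NRF2 itself, stood at 94.3, 105 and 99.0 CPM under the double knockdown, 109, 113 and 106 CPM under shMtfr1l, 83.8, 84.0 and 77.6 CPM under shOpa1 and 78.9, 97.5 and 99.4 CPM under shNT. The shMtfr1l libraries lay above those of every other group, the shOpa1 libraries lay under those of the double knockdown, and the low first replicate of shNT overlapped shOpa1. In shOpa1 against shNT Nfe2l2 did not pass (log2 change -0.17 ± 0.07, adjusted p = 0.083). It was called lower there without replicate 1 of shNT (log2 change -0.27, adjusted p = 0.00396) or replicate 1 of every group (-0.28, 0.00866). Nfe2l2 was 1.19-fold higher in shMtfr1l than in shNT (log2 change 0.25 ± 0.07, adjusted p = 0.0247). That call was lost when replicate 1 or 2 of shMtfr1l, replicate 1 of shNT or replicate 1 or 2 of every group was left out (adjusted p from 0.0701 to 0.35). It was 1.21-fold higher in the double knockdown than in shOpa1 (log2 change 0.28 ± 0.07, adjusted p = 0.0185), and this was lost when replicate 2 or 3 of the double knockdown, replicate 3 of shOpa1 or replicate 2 or 3 of every group was left out (adjusted p from 0.0534 to 0.261). NRF2 is mainly controlled by protein turnover, which these libraries do not measure.

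Of the 4 marker enzymes, Hmox1 and Srxn1 rose under shOpa1, and Nqo1 and Osgin1 passed no test. Hmox1 (chr8:75093618-75100593, plus strand), which breaks heme down to biliverdin, iron and carbon monoxide, stood at 124, 134 and 134 CPM in the double-knockdown libraries, 102, 118 and 102 CPM in shMtfr1l, 113, 124 and 128 CPM in shOpa1 and 98.1, 95.9 and 93.9 CPM in shNT. All knockdown libraries lay above all shNT libraries, and the double knockdown lay above shMtfr1l without overlap. Hmox1 was 1.27-fold higher in shOpa1 than in shNT (log2 change 0.35 ± 0.07, adjusted p = 9.77e-05) and 1.36-fold higher in the double knockdown than in shNT (log2 change 0.44 ± 0.07, adjusted p = 3.24e-06). It was 1.21-fold higher in the double knockdown than in shMtfr1l (log2 change 0.28 ± 0.07, adjusted p = 0.00174), lost when replicate 3 of every group was left out (adjusted p = 0.0614), and did not pass in shMtfr1l against shNT (log2 change 0.16 ± 0.07, adjusted p = 0.135). Macrophages carry much Hmox1, and the summed macrophage markers were 662, 595 and 773 CPM in the double knockdown, 224, 529 and 140 CPM in shMtfr1l, 404, 245 and 629 CPM in shOpa1, and 409, 297 and 272 CPM in shNT. The double-knockdown libraries were high in both. Replicate 2 of shOpa1 and replicates 1 and 3 of shMtfr1l lay under every shNT library in the markers and above every one in Hmox1. The part of macrophages in the Hmox1 values was not tested.

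Srxn1, sulfiredoxin, which repairs overoxidised peroxiredoxins, stood at 43.5, 43.6 and 44.1 CPM under the double knockdown, 40.9, 38.8 and 35.3 CPM under shMtfr1l, 44.9, 45.1 and 51.1 CPM under shOpa1 and 40.2, 41.4 and 36.4 CPM under shNT. The shOpa1 libraries lay above all others, with replicate 3 the highest. Srxn1 was 1.20-fold higher in shOpa1 than in shNT (log2 change 0.26 ± 0.09, adjusted p = 0.0316), lost when replicate 3 of shOpa1, replicate 3 of shNT or replicate 1, 2 or 3 of every group was left out (adjusted p from 0.0541 to 0.417). Its double-knockdown libraries also lay above shNT, without passing (log2 change 0.15 ± 0.09, adjusted p = 0.251).

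Nqo1, the quinone reductase that is a common readout of NRF2, was low, at 6.76, 6.85 and 7.84 CPM in the double-knockdown libraries, 5.87, 5.55 and 5.97 CPM in shMtfr1l, 7.03, 9.46 and 6.77 CPM in shOpa1 and 4.46, 7.11 and 7.23 CPM in shNT. The double-knockdown libraries lay above those of shMtfr1l. The shNT range spanned most of the shOpa1 and double-knockdown values, and the lowest adjusted p of Nqo1 came with a difference of 0.30 ± 0.22 (log2, SE) for shOpa1 against shNT (adjusted p = 0.344). Osgin1, an oxidative stress induced growth inhibitor and NRF2 target, stood at 5.35, 4.40 and 6.34 CPM under the double knockdown, 3.38, 5.43 and 2.78 CPM under shMtfr1l, 3.86, 5.99 and 6.01 CPM under shOpa1 and 5.86, 3.27 and 4.77 CPM under shNT. Its groups overlapped in every comparison, and the lowest adjusted p was 0.269 for the double knockdown against shMtfr1l (log2 change 0.47 ± 0.29). For both genes the standard errors, 0.22 to 0.29 between pairs of groups, were large beside the log2 changes of 0.28 to 0.44 called for Hmox1. A change of that size could thus not be told from the spread in these libraries.

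Slc7a11 rose most of the 37 genes in each comparison that adds shOpa1: shOpa1 against shNT, and the double knockdown against shNT and against shMtfr1l. Slc7a11 (chr3:50364936-50443613, minus strand), the xCT subunit that imports cystine for glutathione synthesis and whose window with the paired TGATGNAA letters is printed above, stood at 20.6, 22.2 and 22.8 CPM in the double-knockdown libraries, 12.9, 13.7 and 13.2 CPM in shMtfr1l, 21.6, 23.0 and 23.1 CPM in shOpa1 and 13.7, 16.2 and 14.9 CPM in shNT. All 6 libraries with an Opa1 hairpin lay above all 6 without one, and the shMtfr1l libraries lay narrowly under those of shNT. Slc7a11 was 1.51-fold higher in shOpa1 than in shNT (log2 change 0.59 ± 0.13, adjusted p = 0.000503) and 1.46-fold higher in the double knockdown than in shNT (log2 change 0.54 ± 0.13, adjusted p = 0.00177). Against shMtfr1l the double knockdown was 1.65-fold higher (log2 change 0.72 ± 0.13, adjusted p = 6.9e-05). These 3 calls held whichever library or replicate number was left out.

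The enzymes that build glutathione changed less. Gclc, the catalytic subunit of the rate-limiting glutamate cysteine ligase, stood at 30.3, 24.0 and 24.6 CPM under the double knockdown, 19.4, 24.0 and 21.1 CPM under shMtfr1l, 20.6, 22.8 and 28.2 CPM under shOpa1 and 19.2, 17.5 and 22.1 CPM under shNT. The double-knockdown libraries lay above those of shNT, and shOpa1 and shMtfr1l overlapped both. Gclc was 1.34-fold higher in the double knockdown than in shNT (log2 change 0.42 ± 0.13, adjusted p = 0.0187), lost when replicate 1 of the double knockdown, replicate 1 or 2 of shNT or replicate 1 or 2 of every group was left out (adjusted p from 0.0529 to 0.24). Gclm, its modifier subunit, stood at 32.7, 31.0 and 28.2 CPM in the double-knockdown libraries, 27.5, 24.0 and 29.0 CPM in shMtfr1l, 28.3, 28.0 and 21.5 CPM in shOpa1 and 26.8, 29.0 and 25.2 CPM in shNT. All its groups overlapped and no comparison passed (lowest adjusted p = 0.278). Gss, which joins glycine to finish glutathione, ran from 16.2 to 24.6 CPM over the 12 libraries, and Gsr, which reduces oxidised glutathione, from 39.97 to 49.0 CPM. Neither passed a test, and their lowest adjusted p values were 0.108 and 0.118. All 5 genes of cystine import and glutathione had positive log2 changes in the double knockdown against shNT, from 0.18 for Gclm to 0.54 for Slc7a11, and 2 of the 5 passed, Gclc with the losses just given. Over all genes, 7147 of 14162 were positive there and 23.1% passed.

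**Figure D2:**
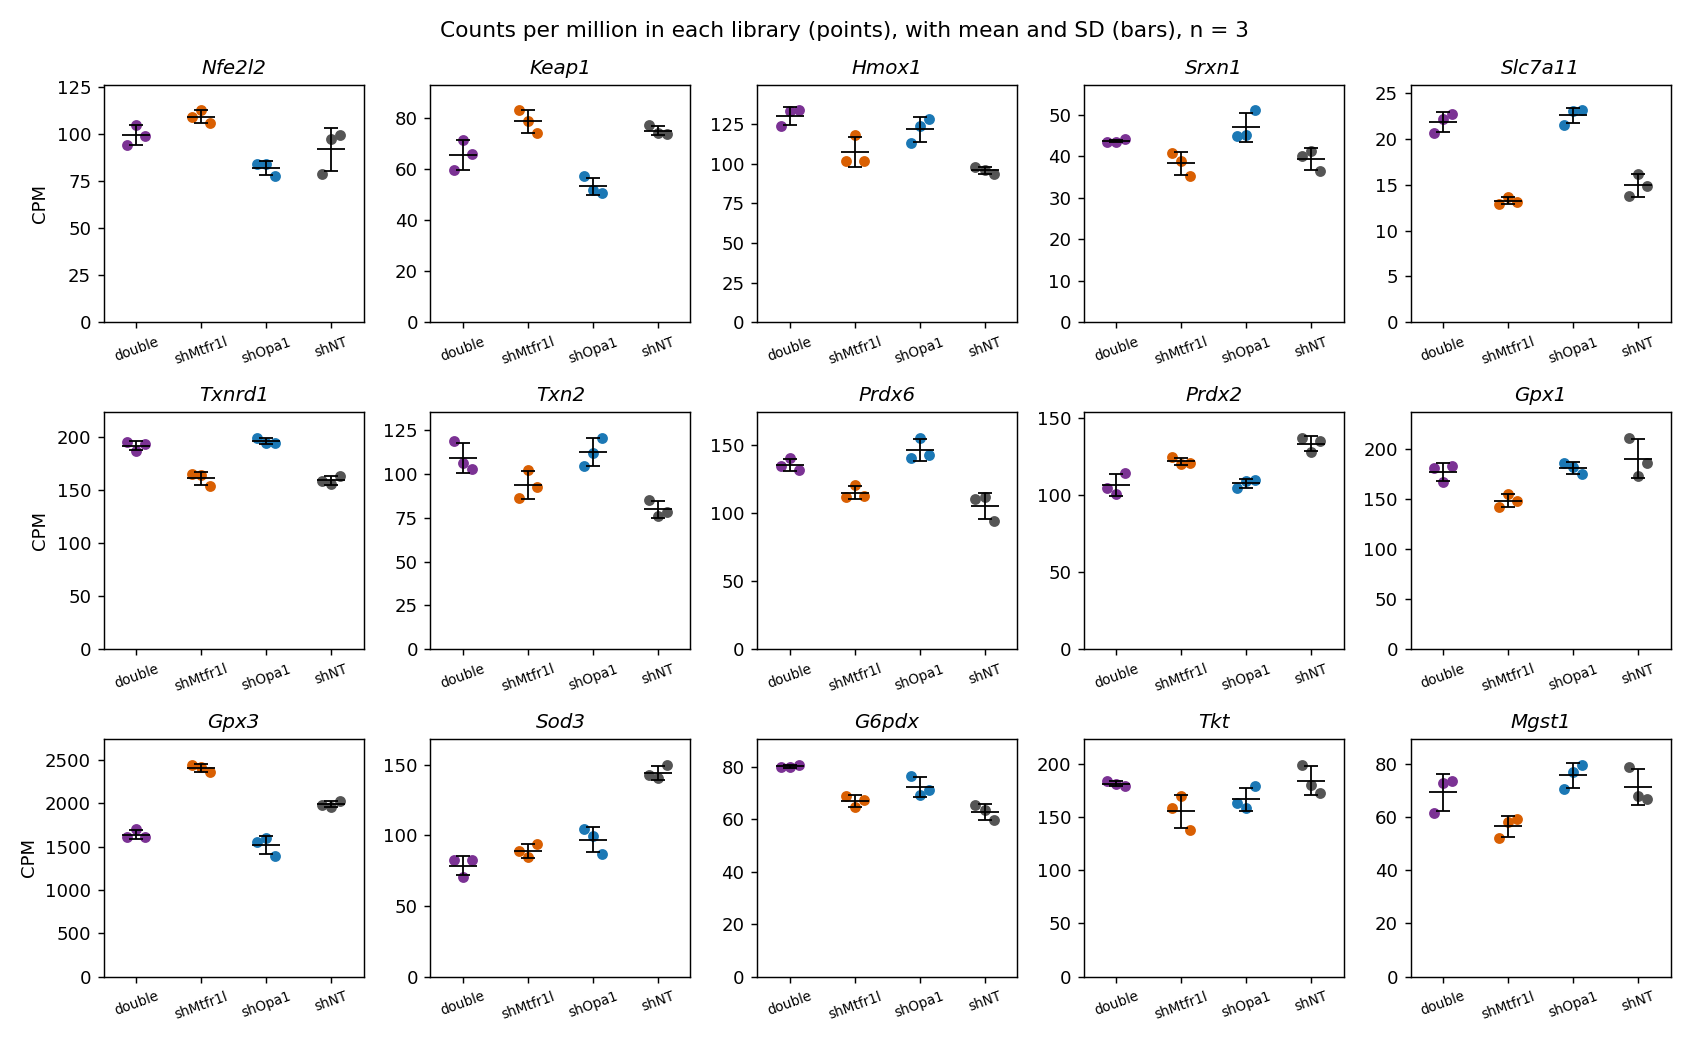
CPM in each library (points) with mean and SD (bars, n = 3) for 15 of the 37 genes, with groups from left to right: the double knockdown (double), shMtfr1l, shOpa1 and shNT. Slc7a11 and Txnrd1 lie high in both groups with an Opa1 hairpin, Keap1 and Prdx2 lie low there, Sod3 is low in all 3 knockdown groups, and Gpx3 is high in shMtfr1l alone.

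In the thioredoxin and glutaredoxin system Txn2, Txnrd1 and Glrx rose under shOpa1, while Txn1 and Txnrd2 passed no test. Txn2 (chr15:77915051-77928994, minus strand), the thioredoxin of the mitochondrial matrix, stood at 119, 106 and 102 CPM in the double-knockdown libraries, 86.1, 102 and 92.4 CPM in shMtfr1l, 105, 112 and 121 CPM in shOpa1 and 85.2, 76.1 and 77.9 CPM in shNT. Every knockdown library lay above every shNT library, and the 2 groups with an Opa1 hairpin lay highest. Txn2 was 1.41-fold higher in shOpa1 than in shNT (log2 change 0.50 ± 0.07, adjusted p = 1.31e-06) and 1.37-fold higher in the double knockdown than in shNT (log2 change 0.45 ± 0.07, adjusted p = 1.08e-05). The rise in shMtfr1l against shNT was 1.17-fold (log2 change 0.23 ± 0.07, adjusted p = 0.0377). It was lost with the replicate number as a block (adjusted p = 0.0622), with the 2 groups fitted alone (0.0644), without robust estimation of the spread (0.0617), and when replicate 2 or 3 of shMtfr1l, replicate 2 or 3 of shNT or replicate 2 or 3 of every group was left out (adjusted p from 0.0666 to 0.517). Txn2 was also higher in the double knockdown than in shMtfr1l (log2 change 0.22 ± 0.07, adjusted p = 0.0249), lost when replicate 1 of the double knockdown, replicate 1 or 3 of shMtfr1l or replicate 1 of every group was left out (adjusted p from 0.0685 to 0.463).

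Txnrd1 (chr10:82833951-82897724, plus strand), the cytosolic selenoenzyme that recharges thioredoxin with NADPH, stood at 195, 187 and 194 CPM under the double knockdown, 165, 164 and 154 CPM under shMtfr1l, 199.7, 195 and 195 CPM under shOpa1 and 159, 155 and 163 CPM under shNT. The 6 libraries with an Opa1 hairpin lay between 187 and 199.7 CPM and the other 6 between 154 and 165 CPM. Txnrd1 was 1.23-fold higher in shOpa1 than in shNT (log2 change 0.30 ± 0.05, adjusted p = 3.27e-05), 1.21-fold higher in the double knockdown than in shNT (log2 change 0.27 ± 0.05, adjusted p = 0.000241) and 1.19-fold higher in the double knockdown than in shMtfr1l (log2 change 0.25 ± 0.05, adjusted p = 0.000565). Each call held in every library and replicate number left out. Its promoter window, printed above, holds the ARE core, as does that of Srxn1.

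Glrx, glutaredoxin, which removes glutathione from protein thiols, stood at 32.9, 33.0 and 31.1 CPM in the double-knockdown libraries, 30.1, 31.2 and 27.6 CPM in shMtfr1l, 37.2, 37.8 and 37.7 CPM in shOpa1 and 28.3, 33.5 and 28.5 CPM in shNT. The shOpa1 libraries lay above all others and close together. Glrx was 1.25-fold higher in shOpa1 than in shNT (log2 change 0.32 ± 0.10, adjusted p = 0.0157), lost when replicate 1 or 3 of shNT or replicate 1 or 3 of every group was left out (adjusted p from 0.0677 to 0.119). Txn1, the cytosolic thioredoxin, ran from 104 to 127 CPM over the 12 libraries with a lowest adjusted p of 0.455. Txnrd2, the mitochondrial thioredoxin reductase, ran from 14.04 to 22.3 CPM, and its nearest result was the double knockdown against shMtfr1l (log2 change 0.36 ± 0.14, adjusted p = 0.0615), which DESeq2 called (adjusted p = 0.0442).

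Peroxiredoxins went in opposite directions under shOpa1: Prdx6 rose, Prdx1 and Prdx2 fell, and Prdx3, Prdx4 and Prdx5 did not pass. Prdx6, which reduces phospholipid hydroperoxides with glutathione, stood at 135, 139.9 and 131 CPM under the double knockdown, 112, 120.5 and 112 CPM under shMtfr1l, 140.3, 155 and 142 CPM under shOpa1 and 109.9, 112 and 94.2 CPM under shNT. The 6 libraries with an Opa1 hairpin lay above the other 6. Prdx6 was 1.39-fold higher in shOpa1 than in shNT (log2 change 0.47 ± 0.07, adjusted p = 4.14e-07) and 1.29-fold higher in the double knockdown than in shNT (log2 change 0.36 ± 0.07, adjusted p = 6.18e-05). It was 1.18-fold higher in the double knockdown than in shMtfr1l (log2 change 0.24 ± 0.07, adjusted p = 0.00763), lost when replicate 1 of every group was left out (adjusted p = 0.0746).

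Prdx2, an abundant cytosolic peroxiredoxin, stood at 105, 101 and 115 CPM in the double-knockdown libraries, 125, 120.1 and 121 CPM in shMtfr1l, 105, 109 and 109.8 CPM in shOpa1 and 137, 128 and 135 CPM in shNT. The shNT libraries lay above all others, and those with an Opa1 hairpin lay lowest. Prdx2 was 1.24-fold lower in shOpa1 than in shNT (log2 change -0.31 ± 0.06, adjusted p = 0.000171) and 1.25-fold lower in the double knockdown than in shNT (log2 change -0.32 ± 0.06, adjusted p = 0.000134). It was 1.14-fold lower in the double knockdown than in shMtfr1l (log2 change -0.19 ± 0.06, adjusted p = 0.0222), lost when replicate 1 or 2 of the double knockdown, replicate 1 of shMtfr1l or replicate 1 or 2 of every group was left out (adjusted p from 0.0847 to 0.178). Prdx1, the other main cytosolic peroxiredoxin and an NRF2 target with the ARE core printed above, stood at 131, 134 and 123 CPM under the double knockdown, 128, 149 and 136 CPM under shMtfr1l, 132, 139 and 137 CPM under shOpa1 and 167, 148 and 144 CPM under shNT. The shNT libraries lay above those of both groups with an Opa1 hairpin, and replicate 1 of shNT was the highest. Prdx1 was 1.18-fold lower in the double knockdown than in shNT (log2 change -0.24 ± 0.06, adjusted p = 0.00461), lost when replicate 1 of shNT or replicate 1 of every group was left out (adjusted p from 0.0517 to 0.0811). In shOpa1 against shNT it barely passed (log2 change -0.17 ± 0.06, adjusted p = 0.0488). That call was lost with the replicate number as a block (0.0596), without robust estimation (0.0636), and when replicate 1, 2 or 3 of the double knockdown, replicate 1, 2 or 3 of shOpa1, replicate 1 or 2 of shNT or replicate 1, 2 or 3 of every group was left out (adjusted p from 0.0509 to 0.474).

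Prdx3, the mitochondrial peroxiredoxin that Txn2 recharges, stood at 64.3, 61.5 and 57.9 CPM in the double-knockdown libraries, 55.8, 48.9 and 44.3 CPM in shMtfr1l, 56.5, 61.3 and 61.8 CPM in shOpa1 and 51.9, 51.6 and 52.0 CPM in shNT. The double-knockdown libraries lay above those of shMtfr1l and shNT and overlapped shOpa1. Prdx3 was 1.23-fold higher in the double knockdown than in shMtfr1l (log2 change 0.30 ± 0.09, adjusted p = 0.00817), lost when replicate 1 of the double knockdown, replicate 3 of shMtfr1l or replicate 2 or 3 of every group was left out (adjusted p from 0.0528 to 0.0927). Against shNT it was 1.18-fold higher (log2 change 0.24 ± 0.08, adjusted p = 0.0349), lost when replicate 1 or 2 of the double knockdown, replicate 1, 2 or 3 of shNT or replicate 1, 2 or 3 of every group was left out (adjusted p from 0.0528 to 0.188). Prdx4, the peroxiredoxin of the endoplasmic reticulum, ran from 117 to 153 CPM and Prdx5, found in mitochondria and peroxisomes, from 172 to 215 CPM. Their lowest adjusted p values were 0.534 and 0.163. Of 4 genes grouped here for the mitochondrial matrix (Txn2, Txnrd2, Prdx3 and Sod2), Txn2 and Prdx3 rose in the double knockdown against shNT, and Txn2 alone passed in shOpa1 against shNT. Prdx5 and Gpx1, found in mitochondria and elsewhere and left out of that group, passed neither comparison. Their log2 changes in the double knockdown against shNT were -0.02 and -0.10 (adjusted p = 0.864 and 0.266).

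Among the glutathione peroxidases, Gpx3 rose under shMtfr1l and fell under shOpa1, and Gpx1 fell under shMtfr1l. Gpx3 (chr11:54902854-54910382, plus strand), the secreted plasma form, was the most abundant of the 37 genes and stood at 1607, 1703 and 1606 CPM under the double knockdown, 2445, 2419 and 2360.0 CPM under shMtfr1l, 1553, 1595 and 1395 CPM under shOpa1 and 1985, 1956 and 2027 CPM under shNT. The shMtfr1l libraries lay above shNT, shNT lay above the double knockdown, and the double knockdown lay above shOpa1, with no overlap. Gpx3 was 1.21-fold higher in shMtfr1l than in shNT (log2 change 0.28 ± 0.04, adjusted p = 1.47e-05) and 1.31-fold lower in shOpa1 than in shNT (log2 change -0.39 ± 0.04, adjusted p = 3.06e-09). The double knockdown was 1.21-fold lower than shNT (log2 change -0.28 ± 0.04, adjusted p = 5.27e-06) and 1.47-fold lower than shMtfr1l (log2 change -0.56 ± 0.04, adjusted p = 1.13e-12). Each of these calls held in every library and replicate number left out. The cardiomyocyte marker sums given above ranked the 4 groups in the same order, and their part in the Gpx3 values was not tested.

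Gpx1, the cytosolic and mitochondrial selenoenzyme that removes hydrogen peroxide, stood at 181, 167 and 183 CPM in the double-knockdown libraries, 142, 155 and 148 CPM in shMtfr1l, 186, 182 and 174 CPM in shOpa1 and 211, 173 and 186 CPM in shNT. The shMtfr1l libraries lay under those of the other 3 groups, which overlapped each other. Gpx1 was 1.28-fold lower in shMtfr1l than in shNT (log2 change -0.36 ± 0.06, adjusted p = 0.000107), a call that held in every library and replicate number left out. It was 1.19-fold higher in the double knockdown than in shMtfr1l (log2 change 0.25 ± 0.06, adjusted p = 0.0026), lost when replicate 3 of every group was left out (adjusted p = 0.0522). Gpx4, which reduces lipid peroxides in membranes, ran from 16.3 to 19.8 CPM, and its lowest adjusted p was 0.805. Of the 75-base windows of Gpx4 transcripts, 46.2% were shared with another annotated gene, mainly the pseudogene Gpx4-ps2, and reads that map to several places were not counted, so its level is uncertain.

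Sod3 fell in all 3 knockdown groups. Sod3 (chr5:52363804-52369738, plus strand), the superoxide dismutase secreted into the matrix, stood at 82.6, 70.6 and 82.3 CPM in the double-knockdown libraries, 88.7, 84.3 and 93.6 CPM in shMtfr1l, 105, 99.4 and 86.9 CPM in shOpa1 and 143, 140.4 and 150.0 CPM in shNT. All 9 knockdown libraries reached at most 105 CPM, and all shNT libraries at least 140.4 CPM. Sod3 was 1.63-fold lower in shMtfr1l than in shNT (log2 change -0.70 ± 0.07, adjusted p = 3.95e-09), 1.49-fold lower in shOpa1 than in shNT (log2 change -0.57 ± 0.07, adjusted p = 4.39e-08) and 1.84-fold lower in the double knockdown than in shNT (log2 change -0.88 ± 0.07, adjusted p = 4.68e-12). These 3 calls held in every library and replicate number left out. Against shOpa1 the double knockdown was 1.24-fold lower (log2 change -0.31 ± 0.07, adjusted p = 0.00765), lost when replicate 2 of the double knockdown, replicate 1 of shOpa1 or replicate 1 or 2 of every group was left out (adjusted p from 0.0914 to 0.331). Against shMtfr1l the difference did not pass (log2 change -0.18 ± 0.07, adjusted p = 0.0756). Epicardial and smooth muscle marker sums were also lower in all 9 knockdown libraries than in shNT, and their part in Sod3 was not tested.

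Sod1, the cytosolic copper and zinc dismutase, stood at 45.7, 42.8 and 40.7 CPM under the double knockdown, 57.9, 55.9 and 53.1 CPM under shMtfr1l, 38.7, 43.8 and 44.9 CPM under shOpa1 and 53.3, 50.3 and 42.5 CPM under shNT. The shMtfr1l libraries lay above those of both groups with an Opa1 hairpin, and the highest shNT library reached into their range. Sod1 was 1.29-fold lower in the double knockdown than in shMtfr1l (log2 change -0.37 ± 0.09, adjusted p = 0.00278), which held in every library and replicate number left out. Of its 75-base windows 12.2% were shared with other annotated genes, as were 4.58% for Prdx1, 4.16% for Prdx2 and 12.3% for Gstm1. Sod2, the manganese dismutase of the mitochondrial matrix, ran from 59.7 to 72.0 CPM and passed no test (lowest adjusted p = 0.731, log2 changes between -0.05 and 0.04). Cat, catalase, ran from 51.8 to 68.4 CPM, with its nearest result in shOpa1 against shNT (log2 change -0.22 ± 0.09, adjusted p = 0.0541). That result passed with DESeq2 size factors (0.0497), with no filter on low counts (0.0473) and among genes of at least 2 CPM on average (0.0368). In the double knockdown against shNT Cat also narrowly missed (log2 change -0.22 ± 0.09, adjusted p = 0.057), with libraries lower and no overlap. It passed there with no filter on low counts (0.042), among genes of at least 2 CPM (0.0466) and with the 2 groups fitted alone (0.0307).

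In the pentose phosphate pathway, which supplies the NADPH that glutathione and thioredoxin reductases spend, G6pdx and Pgd rose with the double knockdown and Tkt fell under shMtfr1l. G6pdx, the first and rate-limiting enzyme, stood at 79.8, 79.9 and 80.8 CPM in the double-knockdown libraries, 69.0, 64.7 and 67.3 CPM in shMtfr1l, 76.4, 69.3 and 71.2 CPM in shOpa1 and 65.5, 63.4 and 59.7 CPM in shNT. The double-knockdown libraries lay above all others, those of shOpa1 above all of shMtfr1l and shNT. G6pdx was 1.28-fold higher in the double knockdown than in shNT (log2 change 0.35 ± 0.07, adjusted p = 0.000315). It was 1.20-fold higher in the double knockdown than in shMtfr1l (log2 change 0.26 ± 0.07, adjusted p = 0.00791), lost when replicate 2 or 3 of every group was left out (adjusted p from 0.0527 to 0.0985). In shOpa1 against shNT it was 1.15-fold higher (log2 change 0.20 ± 0.07, adjusted p = 0.0324). That call was lost with the 2 groups fitted alone (adjusted p = 0.0534), and when replicate 1 or 3 of shOpa1, replicate 2 or 3 of shNT or replicate 1, 2 or 3 of every group was left out (adjusted p from 0.0531 to 0.178).

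Pgd, which makes the second NADPH of the pathway, stood at 129, 120.3 and 119 CPM under the double knockdown, 98.6, 116 and 101 CPM under shMtfr1l, 109, 95.9 and 121 CPM under shOpa1 and 108, 100.3 and 91.8 CPM under shNT. The double-knockdown libraries lay above those of shMtfr1l and shNT and overlapped the scattered shOpa1 values. Pgd was 1.23-fold higher in the double knockdown than in shNT (log2 change 0.29 ± 0.08, adjusted p = 0.00462), which held in every library and replicate number left out. Against shMtfr1l it was 1.16-fold higher (log2 change 0.22 ± 0.08, adjusted p = 0.0379). That call was lost with the replicate number as a block (0.0689), without robust estimation (0.0571), and when replicate 1, 2 or 3 of the double knockdown, replicate 1 or 3 of shMtfr1l or replicate 1 or 3 of every group was left out (adjusted p from 0.0521 to 0.411).

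Tkt, transketolase of the non-oxidative branch, stood at 184, 182 and 179 CPM in the double-knockdown libraries, 158, 169.7 and 138 CPM in shMtfr1l, 163, 159 and 179 CPM in shOpa1 and 199, 180.2 and 173 CPM in shNT. The shMtfr1l libraries lay under all of shNT and of the double knockdown. Tkt was 1.18-fold lower in shMtfr1l than in shNT (log2 change -0.24 ± 0.07, adjusted p = 0.0116), lost when replicate 3 of shMtfr1l, replicate 1 of shNT or replicate 1 or 3 of every group was left out (adjusted p from 0.072 to 0.207). It was 1.17-fold higher in the double knockdown than in shMtfr1l (log2 change 0.22 ± 0.07, adjusted p = 0.0117), lost when replicate 3 of shMtfr1l or replicate 1 or 3 of every group was left out (adjusted p from 0.0741 to 0.147). Taldo1, the transaldolase of the same branch, ran from 87.8 to 108 CPM with a lowest adjusted p of 0.157. All 4 genes of the pathway had positive log2 changes in the double knockdown against shMtfr1l, from 0.14 to 0.26, and 3 of the 4 passed. Over all genes, 7147 of 14162 were positive there and 21.5% passed.

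Glutathione transferases fell where they changed against shNT. Gstp1, a cytosolic transferase, stood at 50.5, 47.9 and 49.5 CPM under the double knockdown, 49.4, 42.2 and 51.4 CPM under shMtfr1l, 52.3, 55.4 and 58.9 CPM under shOpa1 and 61.4, 63.0 and 60.1 CPM under shNT. The shNT libraries lay above all others. Gstp1 was 1.29-fold lower in shMtfr1l than in shNT (log2 change -0.37 ± 0.09, adjusted p = 0.00267), lost when replicate 2 of every group was left out (adjusted p = 0.142). It was 1.25-fold lower in the double knockdown than in shNT (log2 change -0.32 ± 0.08, adjusted p = 0.00429), lost when replicate 2 of every group was left out (adjusted p = 0.0636). Of its 75-base windows 44.5% were shared, mainly with Gstp2, which averaged 0.527 CPM over the 12 libraries. Reads that map to both were not counted, so the level of Gstp1 is uncertain.

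Mgst1, the membrane-bound transferase of the endoplasmic reticulum and outer mitochondrial membrane, stood at 61.4, 72.8 and 73.6 CPM in the double-knockdown libraries, 52.0, 58.2 and 59.2 CPM in shMtfr1l, 70.5, 77.1 and 79.7 CPM in shOpa1 and 78.9, 67.7 and 66.6 CPM in shNT. The shMtfr1l libraries lay under all others. Mgst1 was 1.26-fold lower in shMtfr1l than in shNT (log2 change -0.33 ± 0.09, adjusted p = 0.00719), lost when replicate 1 of shMtfr1l, replicate 1 of shNT or replicate 1 of every group was left out (adjusted p from 0.0686 to 0.234). It was 1.23-fold higher in the double knockdown than in shMtfr1l (log2 change 0.29 ± 0.08, adjusted p = 0.00959), lost when replicate 2 or 3 of the double knockdown, replicate 1 of shMtfr1l or replicate 2 or 3 of every group was left out (adjusted p from 0.0568 to 0.0991). Gsta4, which conjugates the lipid peroxidation product 4-hydroxynonenal, was low, at 2.90, 3.502 and 3.65 CPM under the double knockdown, 4.73, 6.72 and 6.96 CPM under shMtfr1l, 2.67, 4.14 and 5.20 CPM under shOpa1 and 6.04, 6.20 and 6.90 CPM under shNT. The double-knockdown libraries lay under all of shMtfr1l and shNT, and shOpa1 under shNT. Gsta4 was 1.90-fold lower in the double knockdown than in shNT (log2 change -0.93 ± 0.27, adjusted p = 0.00902), lost when replicate 1 of the double knockdown or replicate 2 or 3 of every group was left out (adjusted p from 0.05 to 0.0575). It was 1.83-fold lower in the double knockdown than in shMtfr1l (log2 change -0.87 ± 0.27, adjusted p = 0.0164), lost when replicate 1 of the double knockdown, replicate 2 or 3 of shMtfr1l or replicate 2 or 3 of every group was left out (adjusted p from 0.0569 to 0.114). In shOpa1 against shNT it narrowly missed (log2 change -0.67 ± 0.27, adjusted p = 0.0541) and passed with the replicate number as a block (0.0369) and by DESeq2 (0.0418). Gstm1, another cytosolic transferase, ran from 22.6 to 29.99 CPM with a lowest adjusted p of 0.598.

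There are 2 pairs of comparisons that share no library and can be set side by side. Opa1 knockdown was measured without shMtfr1l (shOpa1 against shNT) and with it (the double knockdown against shMtfr1l). Of the 37 genes, 29 had the same sign in both, 78.4% against 72.1% of all genes tested. Both comparisons called 9 of the 37 (Keap1, Hmox1, Slc7a11, Txn2, Txnrd1, Prdx2, Prdx6, Gpx3 and G6pdx), 69.2% of the 13 without shMtfr1l and 56.2% of the 16 with it, and the 9 had the same sign in both. Over all genes, 2023 were called in both, 48.6% and 66.5% of the calls, and 1995 of them had the same sign. The log2 changes of the 37 correlated across genes at Pearson r = 0.804 (all genes 0.478), where genes are not independent replicates. Mtfr1l knockdown was measured without shOpa1 (shMtfr1l against shNT) and with it (the double knockdown against shOpa1). There 25 of the 37 had the same sign, 67.6% against 56.1% of all genes, and 2 were called in both (Nfe2l2 and Sod3), 25% of the 8 without shOpa1 and 66.7% of the 3 with it. Over all genes 277 were called in both, 18.2% and 41% of the calls. The value of r was 0.470 (all genes 0.122).

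**Figure D3:**
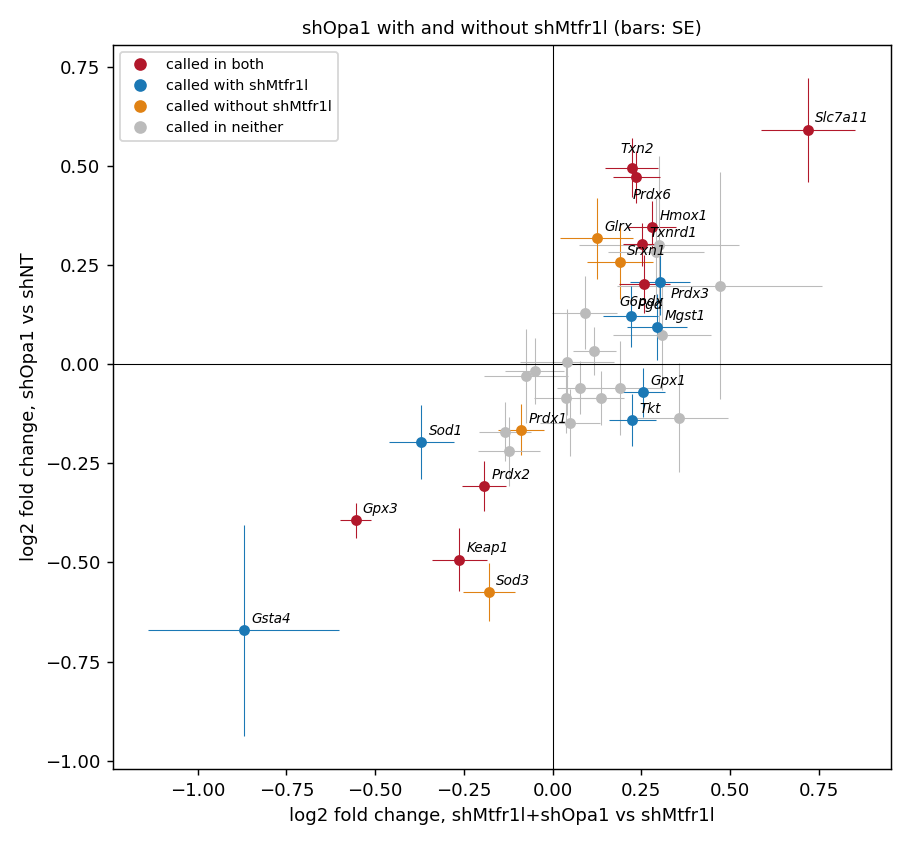
Log2 fold change of the 37 genes with shOpa1 added to shMtfr1l (horizontal axis) and with shOpa1 alone against shNT (vertical axis), with SE bars and colours for the comparisons in which a gene was called. The 9 genes called in both lie in the upper right and lower left, and Slc7a11 lies farthest out among them.

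The effect of shMtfr1l differed with and without shOpa1 for 3 genes. For Gpx1 the log2 effect was -0.03 with shOpa1 and -0.36 without it, a difference of 0.33 ± 0.09 (SE, adjusted p = 0.0297). This was lost without robust estimation (0.0617), and when replicate 1 or 3 of the double knockdown, replicate 1 of shMtfr1l, replicate 2 or 3 of shOpa1, replicate 1 of shNT or replicate 1 or 3 of every group was left out (adjusted p from 0.0619 to 0.368). For Tkt the effect was 0.12 with shOpa1 and -0.24 without it, a difference of 0.37 ± 0.09 (adjusted p = 0.0183), lost when replicate 3 of shMtfr1l, replicate 1 or 2 of shOpa1, replicate 1 of shNT or replicate 1 or 2 of every group was left out (adjusted p from 0.0572 to 0.301). For Sod3 the effect was -0.31 with shOpa1 and -0.70 without it, a difference of 0.40 ± 0.10 (adjusted p = 0.0203), lost when replicate 1 or 3 of the double knockdown, replicate 2 of shMtfr1l, replicate 3 of shOpa1, replicate 3 of shNT or replicate 1, 2 or 3 of every group was left out (adjusted p from 0.0626 to 0.208). Both targets were less reduced where the hairpins were combined: Mtfr1l was 1.66-fold higher in the double knockdown than in shMtfr1l (log2 change 0.73 ± 0.11, adjusted p = 5.27e-06), and Opa1 2.04-fold higher than in shOpa1 (log2 change 1.03 ± 0.19, adjusted p = 0.00745). The part of this in the 3 differences was not tested.

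The first set also holds shMtfr1l against shNT with 1 sample a group, so its ratios carry no test. Mtfr1l stood at 8.73 CPM in shMtfr1l and 79.2 CPM in shNT. All 8 genes called in the second set had the same sign there, where 82.1% of all called genes did, and 27 of the 37 (73.0%) had the same sign against 62.4% of all genes. Gpx3 stood at 3597 CPM in shMtfr1l and 2639 CPM in shNT (log2 ratio 0.45), Sod3 at 52.4 CPM in shMtfr1l and 81.0 CPM in shNT (log2 ratio -0.63), and Txn2 at 90.7 CPM in shMtfr1l and 62.3 CPM in shNT (log2 ratio 0.54). Nfe2l2 stood at 134 CPM in shMtfr1l and 119 CPM in shNT (log2 ratio 0.18) and Gpx1 at 161 CPM in shMtfr1l and 191 CPM in shNT (log2 ratio -0.25). Tkt stood at 104 CPM in shMtfr1l and 133 CPM in shNT (log2 ratio -0.35), Gstp1 at 32.8 CPM in shMtfr1l and 42.0 CPM in shNT (log2 ratio -0.36) and Mgst1 at 16.9 CPM in shMtfr1l and 23.9 CPM in shNT (log2 ratio -0.50). Each sample has 3 count columns, and the sign of these 8 was the same in all 9 pairings of single columns. Hmox1, not called in the second set, stood at 78.3 CPM in shMtfr1l and 72.6 CPM in shNT (log2 ratio 0.11), and Slc7a11 was low at 2.64 CPM in shMtfr1l and 2.75 CPM in shNT (log2 ratio -0.06). Macrophage markers summed to 83.4 CPM in shMtfr1l and 158 CPM in shNT, and cardiomyocyte markers to 12996 CPM in shMtfr1l and 8335 CPM in shNT.

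**Figure D4:**
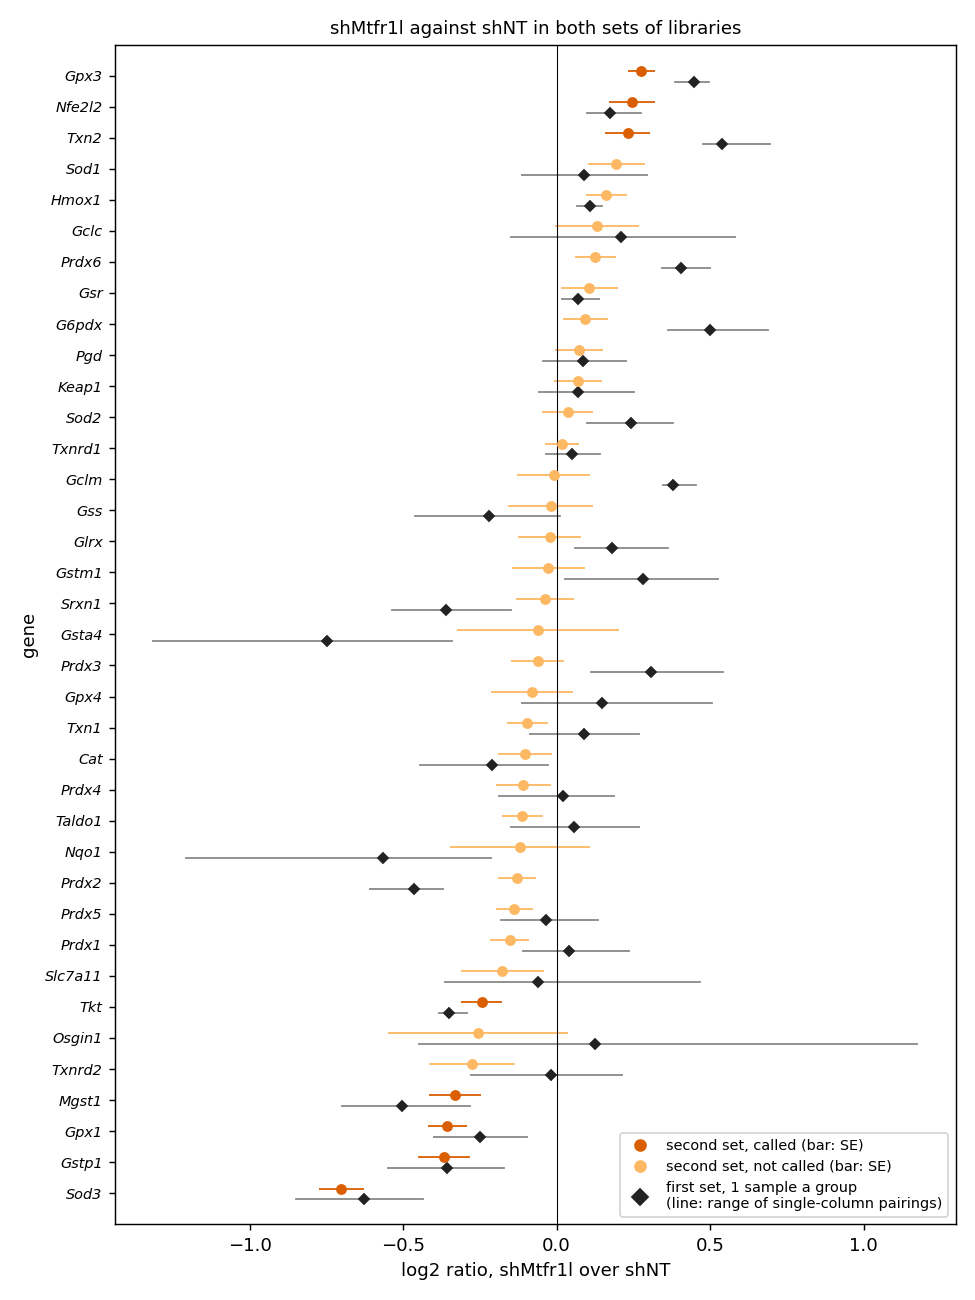
Log2 ratio of shMtfr1l over shNT for the 37 genes in the second set (circles with SE, dark where called) and in the first set (diamonds, with lines for the range over pairings of single count columns). The 8 called genes lie on the same side of 0 in both sets, with Gpx3 at the top and Sod3 at the bottom of the second-set order.

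Per length, in CPM per kilobase of exon, the 37 genes spanned 1.97 for Slc7a11 to 1244 for Gpx3, averaged over the 12 libraries. After Gpx3 came Prdx5 at 285, Gpx1 at 166, Prdx4 at 137 and Prdx2 at 125 CPM per kilobase. At the low end Gsta4 stood at 5.19, Nqo1 at 4.34 and Osgin1 at 2.44 CPM per kilobase. The regulators lay between, Nfe2l2 at 38.7 and Keap1 at 15.2. Of the 36 pairs of neighbours in this order, 34 overlapped between libraries, and Gpx3 and Prdx5 alone stood above the next gene in every library.

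**Figure D5:**
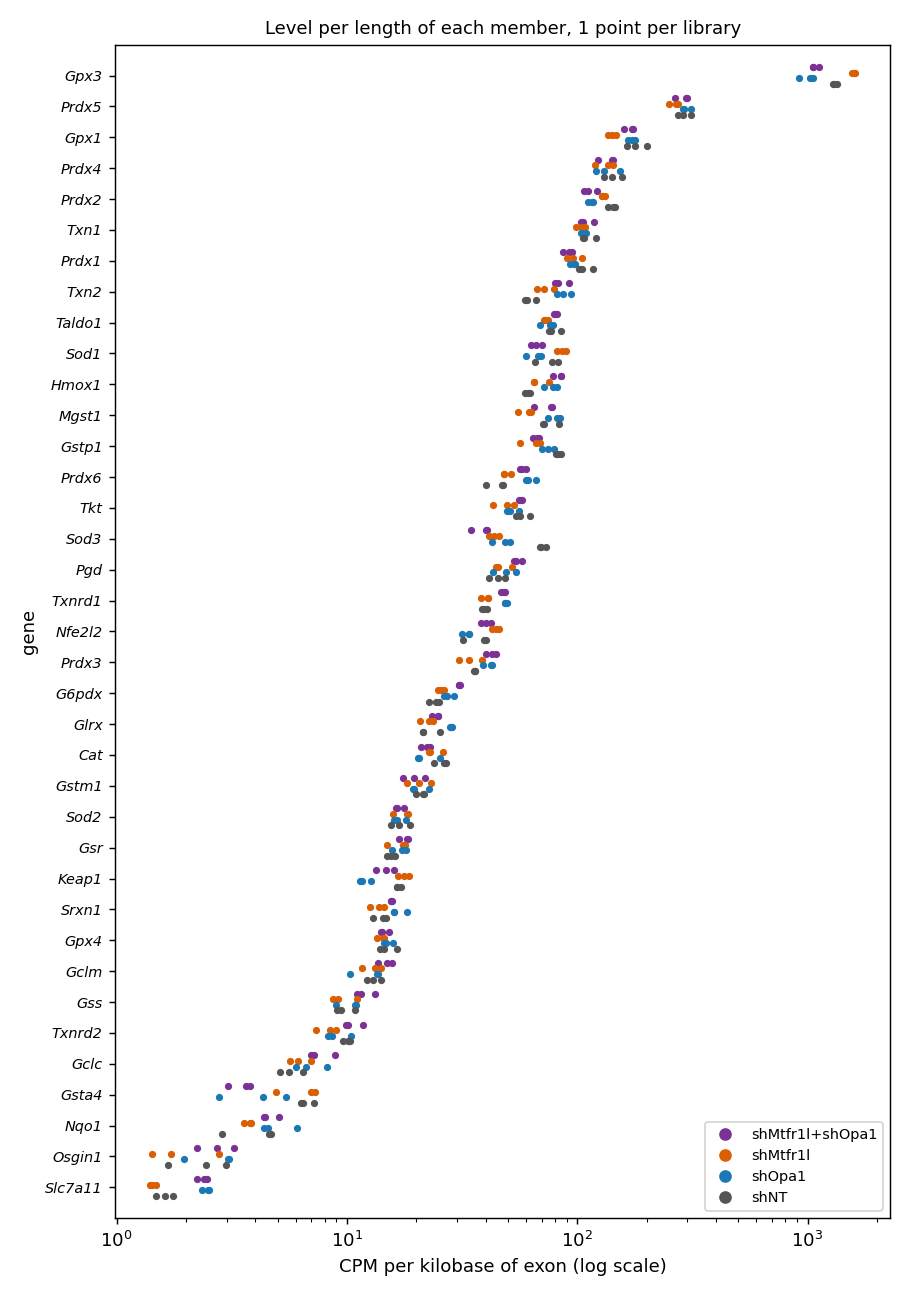
Level of each of the 37 genes in CPM per kilobase of exon on a log axis, 1 point per library and 1 colour per group, ordered by the mean over the 12 libraries. Levels run from 1.97 for Slc7a11 to 1244 for Gpx3, and within most genes the 4 groups lie close together beside the differences between genes.

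Further genes of the pathway came from a list of 86, of which 78 were tested. Under shOpa1 against shNT 7 rose and 18 fell (32.1%, against the 29.4% of all genes), with a median log2 change of -0.13. Of the 78, 35 were listed as further NRF2 targets. Under shOpa1 1 of these rose and 8 fell (25.7%), and 26 log2 changes were negative, against 6920 of 14162 over all genes. In the double knockdown against shNT 2 of the 35 rose and 3 fell (14.3%, against 23.1% of all genes), and 27 were negative. The smallest adjusted p values of the 78 under shOpa1 against shNT belonged to Sqstm1, Mt2, Gpx7, Mafk and Sesn1. Sqstm1, the autophagy receptor p62 that competes with NRF2 for KEAP1 and is itself an NRF2 target, stood at 495, 502 and 489 CPM in the double-knockdown libraries, 594, 636 and 608 CPM in shMtfr1l, 392, 446 and 412 CPM in shOpa1 and 590.1, 604 and 579 CPM in shNT. The shOpa1 libraries lay lowest and the double-knockdown ones next, under all of shMtfr1l and shNT (log2 change -0.50 ± 0.05, adjusted p = 1.16e-10 for shOpa1 against shNT). Mafk, a small MAF partner of NRF2, was 1.57-fold higher in shOpa1 than in shNT (log2 change 0.65 ± 0.08, adjusted p = 1.28e-08). The metallothionein Mt2 was 1.96-fold lower (log2 change -0.97 ± 0.10, adjusted p = 3.4e-10), the endoplasmic reticulum peroxidase Gpx7 1.74-fold lower (log2 change -0.80 ± 0.09, adjusted p = 5.13e-09) and the stress gene Sesn1 1.81-fold lower (log2 change -0.86 ± 0.10, adjusted p = 2.22e-08).

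In the double knockdown against shNT 6 of the 78 rose and 12 fell (23.1%, the same as the 23.1% of all genes), led by Gpx7 (log2 change -0.60 ± 0.09, adjusted p = 2.15e-06), Rpia, a pentose phosphate isomerase (log2 change 1.00 ± 0.18, adjusted p = 6.01e-05), Mt2 (log2 change -0.53 ± 0.10, adjusted p = 6.44e-05), the NADPH-making Idh1 (log2 change -0.37 ± 0.07, adjusted p = 7.41e-05) and Sqstm1 (log2 change -0.26 ± 0.05, adjusted p = 0.000103). Against shMtfr1l 10 rose and 13 fell (29.5%, against 21.5% of all genes), led by Trim16, an E3 ligase that binds NRF2 (log2 change 0.93 ± 0.14, adjusted p = 4.8e-06), Sqstm1 (log2 change -0.31 ± 0.05, adjusted p = 5.95e-06), the methionine sulfoxide reductase Msrb3 (log2 change -0.30 ± 0.06, adjusted p = 9.8e-05), Gpx7 (log2 change -0.45 ± 0.09, adjusted p = 0.000193) and Mt1 (log2 change -0.37 ± 0.07, adjusted p = 0.000255). Rpia joined G6pdx and Pgd in rising against shNT in the double knockdown, with 13.3, 10.3 and 12.3 CPM there, against 5.74, 6.42 and 5.72 CPM in shNT. Rpia was as high with shOpa1 alone, at a mean of 12.4 CPM, and averaged 7.53 CPM in shMtfr1l. Rpe and Pgls, also of the pentose phosphate pathway, averaged 60.2 and 62.6 CPM in the double knockdown. They averaged 64.3 and 64.6 CPM in shMtfr1l and 64.2 and 65.8 CPM in shNT. Against shOpa1 alone 4 rose and 3 fell (8.97%, against 4.77% of all genes), led by Sqstm1 (log2 change 0.25 ± 0.05, adjusted p = 0.00103), Sesn2 (log2 change -0.38 ± 0.08, adjusted p = 0.00313), Mt2 (log2 change 0.45 ± 0.10, adjusted p = 0.00362), Mafk (log2 change -0.32 ± 0.08, adjusted p = 0.00731) and Sesn3 (log2 change 0.69 ± 0.17, adjusted p = 0.00952). Each of these 5 had a mean nearer to that of shNT in the double knockdown than in shOpa1. Opa1 itself was 2.04-fold higher in the double knockdown than in shOpa1 (log2 change 1.03 ± 0.19, adjusted p = 0.00745), and its part in these differences cannot be told apart from that of Mtfr1l.

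Under shMtfr1l against shNT 2 of the 78 rose and 4 fell (7.69%, under the 10.8% of all genes). The rises were Txnip, an inhibitor of thioredoxin (log2 change 0.24 ± 0.06, adjusted p = 0.00694), and Nfe2l1, the NRF2 relative that drives proteasome genes (log2 change 0.16 ± 0.05, adjusted p = 0.0168). The leading falls were Ugdh, which makes UDP-glucuronate (log2 change -0.26 ± 0.07, adjusted p = 0.00495), the ferritin light chain Ftl1 (log2 change -0.56 ± 0.12, adjusted p = 0.0168) and the aldehyde dehydrogenase Aldh1a1 (log2 change -0.19 ± 0.06, adjusted p = 0.0225). Ftl1 stood at 654, 676 and 603 CPM under the double knockdown, 393, 516 and 368 CPM under shMtfr1l, 723, 701 and 759 CPM under shOpa1 and 670.1, 632 and 586 CPM under shNT, lowest in shMtfr1l. Ferritin genes have many processed copies, so their counts are uncertain. The interaction passed for 1 of the 78 (1.28%, under the 3.56% of all genes), Mt2 (log2 change 0.63 ± 0.14, adjusted p = 0.00473).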

How the data were processed

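Bulk RNA of 12 libraries of the second set, 3 in each of 4 groups, and of 2 samples of the first set was analysed. Per the file headers, the authors deposited gene counts, not normalized, from featureCounts 2.0.6 on an mm10 annotation with reverse-strand counting. The command asked for paired reads but not for counting fragments, so each mate can count, and 65.86% of counts from 1 to 20 were even; counting noise is thus larger than single counts imply. Multi-mapping reads were not counted. No aligner is named in the sources used here. FastQC and DESeq2 stand in the submitters' processing notes without versions. The 37 genes, the other lists and the tests were chosen with earlier results of these data known.

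Counts were fitted with edgeR 4.0.16 in R 4.3.3 (TMM scaling, filterByExpr, robust quasi-likelihood). The fit had 1 coefficient per group over all 12 libraries, 8 residual degrees of freedom and a biological coefficient of variation of 12.04%. Log2 changes used the default prior count of the fit. A prior count of 2 entered only the log2 CPM behind the correlations of deviations given below. The SE of a log2 change is its absolute value divided by the square root of the F statistic. P-values were adjusted by Benjamini-Hochberg over 14162 genes, with 0.05 as threshold. The interaction is the effect of shMtfr1l with shOpa1 minus its effect without. Floors are 3 counts and cover counting error only. Values per kilobase use the length column of the tables. The fit was tested on simulated data. Alternatives were DESeq2 1.42.0, its size factors in edgeR, no filter on low counts, a mean of at least 2 CPM, the replicate block, the compared groups alone, each library or replicate number left out, and a fit without robust estimation, the last chosen after seeing the data. The titles tie replicate numbers to days, so the number can serve as a block; deviations of same-numbered libraries from their group means correlated at -0.189 to 0.122 over 18 pairs, 1 of them above 0.1. No 2 libraries of a group were duplicates (chi-square per gene from 5.31 to 10.1).

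Values in every library are given for the regulators, for Hmox1, Nqo1, Gclc, Gclm, Srxn1, Txnrd1, Slc7a11 and Osgin1, and for any other of the 37 called at least once; the rest are given as ranges. Of the other pathway genes, up to 5 per comparison with the smallest adjusted p among those called are named. In the first set, the 3 count columns of a sample were summed. There are 12 count columns of the series that were not used, since their names do not tie them to 1 labelled sample. Shared windows are 75-base stretches of annotated transcripts found in another gene's transcripts (GENCODE, GRCm38).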

Additional observations from a re-analysis of the deposited data

Results flagged for a closer look

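The effect of shMtfr1l differed between cells with and without shOpa1 by the interaction test for 3 of the 37 genes. The difference was 0.33 on the log2 scale for Gpx1, 0.40 for Sod3 and 0.37 for Tkt. For Gpx1 and Sod3 the fall with shMtfr1l was smaller in cells that also had shOpa1, and for Tkt the sign turned, with a value of 0.12 with shOpa1 that did not pass its own test. Each of the 3 lost its call when some single libraries were left out.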

How the results depend on the processing

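All 58 calls of the 37 genes kept their direction in every alternative in which they were refitted. DESeq2 size factors, no filter on low counts, a mean of at least 2 CPM and the DESeq2 test each kept the 58 calls. With the replicate number as a block 3 calls were lost (Txn2 in shMtfr1l against shNT, Prdx1 in shOpa1 against shNT, Pgd in the double knockdown against shMtfr1l) and Gsta4 in shOpa1 against shNT was gained. The block left 7 calls for shMtfr1l against shNT, 13 for shOpa1 and 15 for the double knockdown, 15 for the double knockdown against shMtfr1l, 3 against shOpa1 and 3 for the interaction, and it changed no other call. The compared groups alone lost 2 of 55 calls and the fit without robust estimation, chosen after seeing the data, 4 of 58. Leaving out a library or a replicate number gave 5 to 8 calls for shMtfr1l against shNT, 10 to 14 for shOpa1 and 11 to 16 for the double knockdown against shNT. It gave 8 to 16 for the double knockdown against shMtfr1l, 0 to 3 against shOpa1 and 1 to 3 for the interaction. These fits have fewer libraries, and 26 of the 58 calls held in all of them. Precision is limited by 3 libraries a group. In the first set, 23 of the 37 ratios were positive, 25 with scaling by total counts and 17 to 24 over pairings of single columns. The fibroblast samples of the first set were not compared, since count columns could not be tied to their labels.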
